A study of Homo sapiens with 15 samples.

Results

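Cadherins are calcium-dependent adhesion proteins of the cell surface, and protocadherins are the largest group of the wider cadherin superfamily. The genes described here are the protein-coding genes whose symbol is CDH or PCDH followed by digits only, or begins with PCDHA, PCDHB or PCDHG followed by a digit or the letter C. There were 68 such genes among the 62700 genes of both count tables, made up of 23 CDH genes, 11 PCDH genes outside the clusters, 15 genes of the protocadherin alpha cluster, 16 of the beta cluster and 3 (PCDHGC3, PCDHGC4 and PCDHGC5) of the gamma cluster. Read to the letter, this rule leaves out the 19 PCDHGA and PCDHGB genes, which were kept as a list of their own.

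The libraries came from 143B, an established human osteosarcoma cell line, with 3 libraries in each of 5 conditions. Non-OSCs were adherent 143B cells grown in DMEM with serum, and osteosarcoma stem cells (OSCs) were 143B cells kept in serum-free tumorsphere medium with EGF and basic FGF. These libraries carried the genotype label WT and form the first table. The second table holds OSCs infected with lentivirus for a control construct (shCtrl, also labelled WT) or for one of the short hairpin RNAs against PDK1, the pyruvate dehydrogenase kinase that restrains entry of pyruvate into the TCA cycle (shPDK1#1 and shPDK1#2). Culture format, serum and growth factors differed together between OSCs and non-OSCs and cannot be told apart, and all conditions are of 1 cell line. Since no label states that libraries came from separate cultures, p-values measure the spread between these libraries, which may be technical.

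Summed counts were 7992499 to 10495051 per library in the first table and 8073055 to 11256536 in the second, so that 3 counts corresponded to 0.268 to 0.373 CPM (counts scaled to a TMM-normalized library of 1e6 counts). PDK1 was 45.2 ± 1.28 CPM in shCtrl, 28.1 ± 0.844 CPM in shPDK1#1 and 19.8 ± 1.65 CPM in shPDK1#2 (SD, n = 3 each), and the 3 groups did not overlap. Of 9 osteoblast-lineage and osteosarcoma markers, COL1A1 was at 390.2 to 1388 CPM in all libraries, whereas IBSP was at 0 counts and SP7 at 0 or 1 count in every library.

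Classical cadherins (types I and II) bind the same or a similar cadherin on a neighbouring cell through their first extracellular repeat, and their cytoplasmic tails bind p120 catenin and beta-catenin, which connects through alpha-catenin to actin. N-cadherin (CDH2) and OB-cadherin (CDH11) are the classical cadherins known from mesenchymal and bone-forming cells, and E-cadherin (CDH1) is that of epithelia. Protocadherins lack the catenin-binding tail. The unclustered delta protocadherins are mostly known from the nervous system, and the clustered alpha, beta and gamma genes lie in a row on chromosome 5, where each variable exon has its own promoter.

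In the alpha and gamma clusters, the variable exons are spliced to constant exons that all genes of the cluster share. The first constant exons of both clusters are shown because reads that lie only in constant exons cannot be assigned to 1 gene. The alpha exon lies at chr5:140978949-140979007 and is shared by 15 genes, and the gamma exon at chr5:141494807-141494865 is shared by 22 genes (GRCh38, plus strand, GENCODE 44). Both are 59 bases long, and the 39 bases (66.1%) that are the same in both are in lower case, while capitals mark those that differ.
PCDHA constant exon: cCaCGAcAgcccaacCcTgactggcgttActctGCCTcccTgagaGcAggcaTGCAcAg
PCDHG constant exon: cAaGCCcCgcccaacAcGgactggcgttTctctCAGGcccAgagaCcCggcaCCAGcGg
RSEM, which the authors used, divides such reads by estimated abundance, so values of single alpha and gamma genes are uncertain. As stretches of 75 bases, 37.4% of the PCDHGC3 sequence occurs in other genes, and the median over the alpha genes is 46.6%.

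Clustered protocadherin promoters are known to carry a conserved element with the core CGCT. The 250 bases before the RefSeq start were available for 50 of the 68 genes (63 windows, GRCh38.p14), and 4 are shown here because 1 gene of the gamma cluster, 1 of the beta cluster and 2 delta protocadherins carry much of what follows. The windows are chr5:141475716-141475965 (plus strand), chr5:141094365-141094614 (plus strand), chr4:137532495-137532744 (minus strand) and chrX:100410274-100410523 (minus strand), in the order of the lines. Capitals mark CGCT on either strand, where AGCG is the same core read on the other strand.
PCDHGC3: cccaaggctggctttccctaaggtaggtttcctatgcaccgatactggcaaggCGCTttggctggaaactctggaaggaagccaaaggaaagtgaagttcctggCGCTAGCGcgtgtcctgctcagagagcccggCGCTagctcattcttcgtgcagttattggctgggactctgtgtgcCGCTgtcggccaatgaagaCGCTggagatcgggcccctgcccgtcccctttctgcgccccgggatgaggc
PCDHB2: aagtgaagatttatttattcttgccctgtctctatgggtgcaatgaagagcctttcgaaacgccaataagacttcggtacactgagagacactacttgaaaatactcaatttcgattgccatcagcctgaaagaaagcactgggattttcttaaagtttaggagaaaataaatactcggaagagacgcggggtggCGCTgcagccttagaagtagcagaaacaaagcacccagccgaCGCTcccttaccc
PCDH18: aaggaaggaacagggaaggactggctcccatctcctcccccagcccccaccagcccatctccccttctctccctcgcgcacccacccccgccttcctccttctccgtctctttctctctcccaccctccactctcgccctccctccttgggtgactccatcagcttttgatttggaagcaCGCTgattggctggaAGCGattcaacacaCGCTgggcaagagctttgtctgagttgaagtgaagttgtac
PCDH19: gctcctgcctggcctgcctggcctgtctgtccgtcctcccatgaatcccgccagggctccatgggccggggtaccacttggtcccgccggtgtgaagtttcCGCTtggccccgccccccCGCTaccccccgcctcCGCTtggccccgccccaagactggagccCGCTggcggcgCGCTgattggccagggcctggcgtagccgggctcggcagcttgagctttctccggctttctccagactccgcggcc
CGCT was in 88.9% of the windows of these genes and 93.3% of the 30 windows of clustered genes, against 64.8% of the 35116 windows of all genes. The SNAI-type E-box CACCTG was in 7.94% of these genes' windows (17.5% of all windows), the AP-1 motif TGANTCA in 4.76% (6.57%), and the cyclic AMP element TGACGTCA in 0 of 63 (1.65%). Both strands were searched, no motif was weighed for base composition, and a match is a description of the letters only.

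A gene entered a test when it passed edgeR's filter on low counts. Of the 68 genes, 15 were tested in the first table and 19 in the second, the 4 additional ones being CDH7, PCDH10, PCDHGC4 and PCDHGC5. The other 49 were tested in neither table, none had more than 18 counts in a library, and 11 were at 0 counts in all 15 libraries. Among the 68, 32 never exceeded 3 counts.

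The genes at 0 throughout were CDH5 (VE-cadherin of endothelium), CDH16, CDH17, PCDHB1 and 7 alpha genes (PCDHA4, PCDHA5, PCDHA6, PCDHA7, PCDHA8, PCDHA9 and PCDHA12). CDH1 had 1 count in 1 library and 0 in the other 14, which is under the limit of 3 counts per library. P-cadherin (CDH3) had at most 9 counts and M-cadherin (CDH15) at most 3. The remaining untested CDH genes were CDH8, CDH9, CDH10, CDH12, CDH18, CDH19, CDH20, CDH22 and CDH26, with at most 9 counts (CDH22). The untested PCDH genes were PCDH8, PCDH12, PCDH15 and PCDH17, led by PCDH12 with at most 10 counts. Of the alpha cluster, PCDHA1, PCDHA2, PCDHA3, PCDHA10, PCDHA11, PCDHA13, PCDHAC1 and PCDHAC2 had at most 9 counts, and the whole cluster summed to between 1 and 13 counts per library. The beta genes without a test were PCDHB3 to PCDHB16, of which PCDHB14 was highest with 18 counts.

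**Figure D1:**
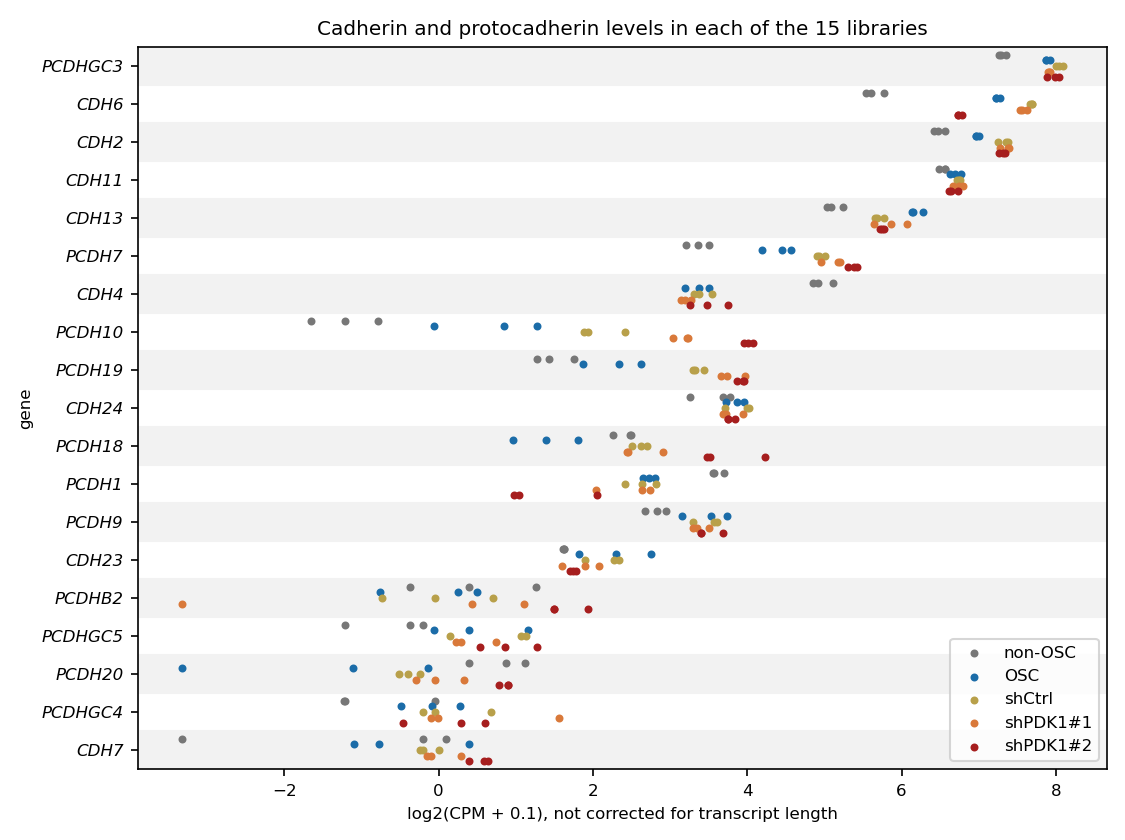
Each point is 1 library, with the level on the horizontal axis as log2(CPM + 0.1) and the 19 tested genes on the vertical axis, ordered by their highest group mean and coloured by condition. PCDHGC3, CDH6, CDH2 and CDH11 lead in every library, and the 2 tables (non-OSC and OSC, then the 3 hairpin conditions) were normalized separately.

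Per kilobase of the canonical transcript, PCDHGC3 had the highest level in all 5 conditions and CDH2 the next. In non-OSCs these were 33.2 ± 0.999 and 22.3 ± 1.17 CPM per kb (SD, n = 3), followed by CDH11 (13.8 ± 0.408), CDH6 (5.83 ± 0.494), CDH4 (4.66 ± 0.441) and CDH13 (4.41 ± 0.342). Only the neighbours CDH4 and CDH13 overlapped between libraries among these 6 genes. In OSCs the order was PCDHGC3 (49.7 ± 1.22 CPM per kb), CDH2 (31.4 ± 0.480), CDH6 (17.7 ± 0.404), CDH11 (15.4 ± 0.740) and CDH13 (9.24 ± 0.489), with no overlap between neighbours, and CDH4 stood in ninth place at 1.52 ± 0.166.
In shCtrl and shPDK1#1 the leading 5 stood in the order seen in OSCs. In shPDK1#2, CDH11 (15.1 CPM per kb) came before CDH6 (12.6 CPM per kb), and their libraries did not overlap. Apart from these and CDH4, CDH24, PCDH1, PCDH7 and PCDH18, every tested gene had a mean under 2 CPM per kb in each condition, and many neighbours in that order overlapped.

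The first comparison asks how OSCs differ from the adherent cells they were derived from. Most of the expressed cadherins were higher in OSCs, with CDH6 about 3-fold higher (303.7% of the non-OSC level) and CDH13 and PCDH7 at about 2-fold, whereas CDH4 fell to 32.6% and PCDH1, PCDH18 and PCDH20 also fell. Of the 15 genes tested, 13 passed edgeR's quasi-likelihood test (Benjamini-Hochberg adjusted over 14287 genes, threshold 0.05), 9 of them higher and 4 lower. The background was high, since 63.9% of all tested genes passed (32.4% higher, 31.5% lower). The median log2 fold change was 0.49 over the 15 genes and -0.01 over all genes. Libraries of both groups did not overlap for the same number, 13 genes, against 66.9% of all genes. In these bulk libraries, fewer cells with a transcript and less of it per cell cannot be told apart.

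Among type I cadherins, CDH2 (chr18:27932879-28177946, GRCh38) measured 94.4, 85.2 and 88.5 CPM in the non-OSC libraries and 125, 128 and 125 CPM in the OSC libraries. Every OSC library was above every non-OSC library, and the log2 fold change was 0.49 (SE 0.059, adjusted p = 2.29e-07 from edgeR). R-cadherin, CDH4 (chr20:61252261-61940617), a close relative of N-cadherin, measured 34.4, 30.2 and 28.8 CPM in non-OSCs and 11.2, 9.004 and 10.3 CPM in OSCs. It thus went the other way from CDH2, without overlap, by -1.62 on the log2 scale (SE 0.12, edgeR adjusted p = 1.39e-10).

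CDH6 (chr5:31193686-31329146), the type II K-cadherin known from kidney, was at 54.6, 46.5 and 48.4 CPM in non-OSCs and at 149.8, 149 and 155 CPM in OSCs. The groups stood far apart, and among the 15 tested genes this was the largest rise, a log2 fold change of 1.60 (SE 0.066, edgeR adjusted p = 6.54e-15). The pseudogene DUX4L51 overlaps 8.91% of its exons and had at most 10 counts in any library. CDH11 (chr16:64943753-65126112) differed little, with 94.3, 94.4 and 89.6 CPM in non-OSCs against 103, 109 and 99.1 CPM in OSCs. Its log2 fold change of 0.16 (SE 0.061, edgeR adjusted p = 0.0243) lost the call without non-OSC replicate 3 (0.14, adjusted p = 0.106) or OSC replicate 2 (0.13, adjusted p = 0.139). CDH24, another type II cadherin, was at 9.45 to 13.6 CPM in non-OSCs and 13.1 to 15.5 CPM in OSCs and did not pass (log2 fold change 0.27, 95% interval -0.02 to 0.56, edgeR adjusted p = 0.119).

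T-cadherin, CDH13 (chr16:82626965-83800640), is held in the membrane by a lipid anchor and has no cytoplasmic tail. Its libraries were at 37.8, 33.7 and 32.7 CPM in non-OSCs and at 70.4, 70.7 and 77.2 CPM in OSCs. The groups stood apart, with a log2 fold change of 1.06 (SE 0.080, edgeR adjusted p = 1.58e-10). The antisense gene CDH13-AS2 lies opposite 21.4% of its exons and had at most 1 count in a library. CDH23 (chr10:71396920-71815947), a component of the tip links of hair cells, was low, with 2.99, 2.96 and 2.98 CPM in non-OSCs and 4.81, 3.44 and 6.64 CPM in OSCs. Its log2 fold change was 0.72 (SE 0.27, edgeR adjusted p = 0.0249). The call did not hold without any 1 of the non-OSC libraries (0.72 in each case, adjusted p = 0.0515 to 0.055), without OSC replicate 3 (0.47, adjusted p = 0.195) or under DESeq2 (adjusted p = 0.0544). C10orf105, which lies opposite 18.9% of its exons, had at most 5 counts.

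**Figure D2:**
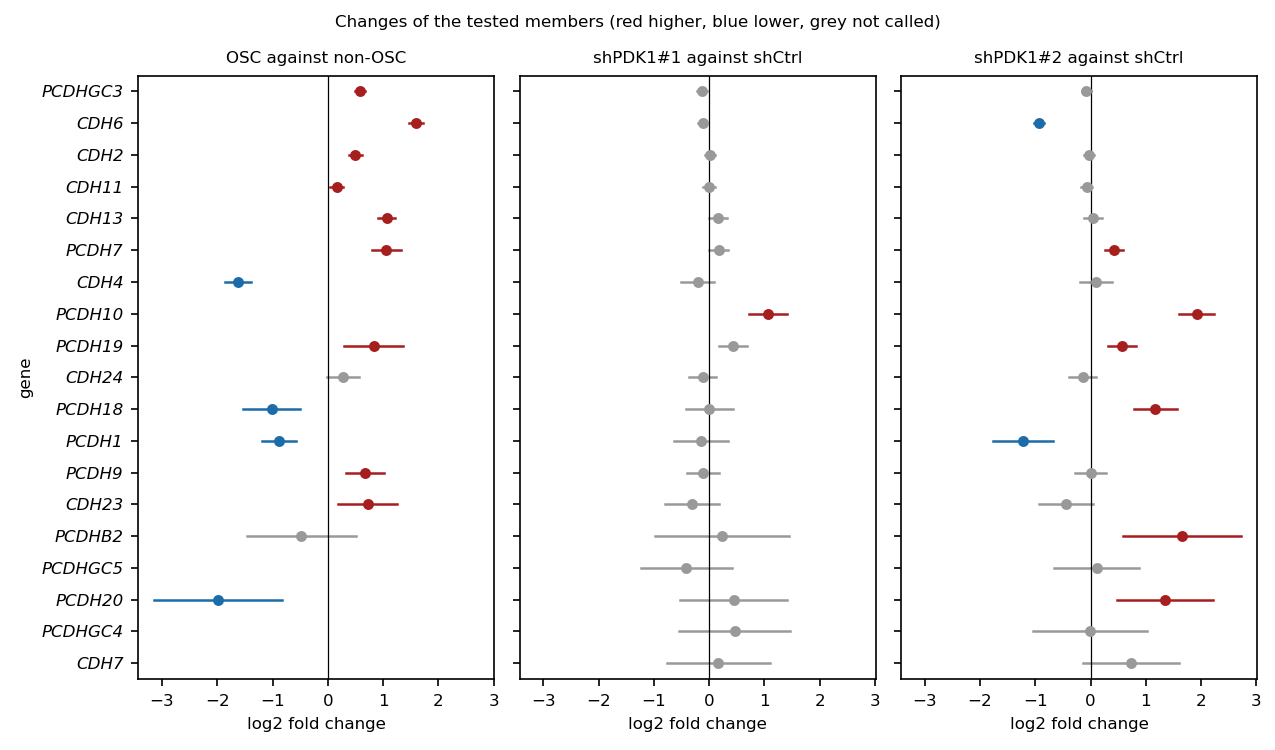
Points are log2 fold changes of the tested genes in 3 comparisons and lines their approximate 95% intervals (the estimate ± 1.96 SE). These are somewhat too narrow for so few libraries. Red is higher and blue lower at an edgeR adjusted p under 0.05, and grey is neither. Of the 15 genes tested in OSCs against non-OSCs 13 are coloured, of the 19 tested with each hairpin 1 is coloured for shPDK1#1 and 8 for shPDK1#2.

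All 3 delta-1 protocadherins passed, where 63.9% of all tested genes did. PCDH7 (chr4:30720369-31146805) was at 9.16, 10.2 and 11.2 CPM in non-OSCs and 18.2, 21.8 and 23.6 CPM in OSCs, without overlap (log2 fold change 1.06, SE 0.14, edgeR adjusted p = 6.07e-07). PCDH9 measured 7.62, 7.01 and 6.28 CPM in non-OSCs and 13.2, 11.4 and 8.82 CPM in OSCs (log2 fold change 0.67, SE 0.18, edgeR adjusted p = 0.00218). PCDH1 (chr5:141853090-141879246), a protocadherin of epithelia and of airway in particular, fell from 11.8, 12.9 and 11.7 CPM to 6.53, 6.88 and 6.16 CPM. Its log2 fold change was -0.89 (SE 0.16, edgeR adjusted p = 4.28e-05), so within this small class the direction was not shared.

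The delta-2 protocadherins, whose cytoplasmic tails bind the WAVE complex of actin regulators, were also divided. PCDH19 (chrX:100291644-100410273), the gene of an X-linked epilepsy, was at 2.60, 3.28 and 2.31 CPM in non-OSCs and 3.57, 4.96 and 6.04 CPM in OSCs. The log2 fold change of 0.83 (SE 0.27, edgeR adjusted p = 0.0113) did not pass without OSC replicate 3 (0.66, adjusted p = 0.0755). PCDH18 (chr4:137518918-137532494) went the other way, from 5.50, 4.71 and 5.51 CPM to 1.85, 2.53 and 3.38 CPM, without overlap (log2 fold change -1.01, SE 0.26, edgeR adjusted p = 0.00212). PCDH10 (chr4:133149294-133208606) was under the filter in this table, with 5, 2 and 3 counts in non-OSCs and 7, 23 and 14 counts in OSCs. When no filter was applied, its log2 fold change was 2.21 (SE 0.62, edgeR adjusted p = 0.00147).

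PCDH20 (chr13:61409685-61415849) rested on few reads, with 18, 19 and 11 counts in non-OSCs and 0, 8 and 3 counts in OSCs. The log2 fold change was -1.98 (SE 0.59, edgeR adjusted p = 0.0057). It was -3.10 without OSC replicate 2, where both remaining libraries were at or under 3 counts and the fitted value depends on the prior count. A second annotated gene, ENSG00000197991, covers 91.3% of its exons on the same strand and was at 0 counts in all libraries, so the division of reads between both is uncertain.

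In the gamma cluster, PCDHGC3 (chr5:141475947-141512977), a C-type gene at the end of the cluster, was at 156, 163 and 154 CPM in non-OSCs and 233, 233 and 243 CPM in OSCs. All OSC libraries were higher (log2 fold change 0.58, SE 0.049, edgeR adjusted p = 1.11e-09). PCDHGC3 held 82.4% to 83.6% of all counts of the 22 gamma genes in non-OSCs and 87.3% to 89.2% in OSCs, ranges that do not overlap. Since the constant exons are shared, the cluster was also summed to 1 feature, which had 0.49 as its log2 fold change (SE 0.047, edgeR adjusted p = 7.47e-09). Of the 19 PCDHGA and PCDHGB genes 3 were tested and 1 passed (33.3%, against 63.9% of all genes). This was PCDHGB5, at 8.66 ± 1.37 CPM in non-OSCs and 6.24 ± 0.922 CPM in OSCs (SD, n = 3, log2 fold change -0.46, edgeR adjusted p = 0.0363), in the other direction from PCDHGC3. DESeq2 called 0 of the 3 tested genes.

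PCDHB2, the only beta gene tested, had 7, 21 and 11 counts in non-OSCs and 4, 13 and 9 in OSCs. The groups overlapped and the test did not pass (log2 fold change -0.48, 95% interval -1.46 to 0.50, edgeR adjusted p = 0.415). The 16 beta genes summed to 23 to 33 counts in non-OSCs and 16 to 33 in OSCs (log2 fold change -0.11, SE 0.31, adjusted p = 0.773).

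**Figure D3:**
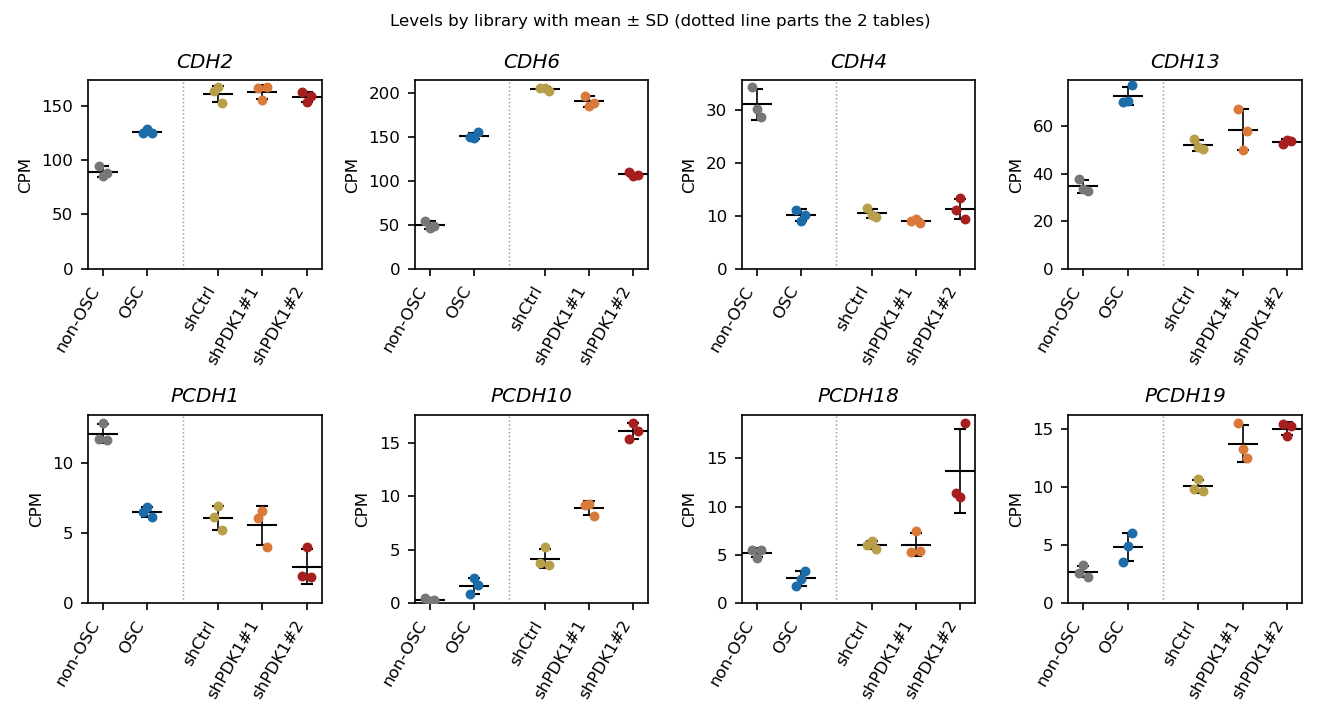
Points are the 3 libraries of each condition, horizontal bars the mean and vertical bars ± 1 SD, in CPM on a linear axis from 0, for 8 genes. CDH2, CDH6 and CDH13 are higher and CDH4 and PCDH1 lower in OSCs than in non-OSCs, and with shPDK1#2 CDH6 and PCDH1 are below shCtrl while PCDH10, PCDH18 and PCDH19 are above it.

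The second table compares OSCs carrying either PDK1 hairpin with shCtrl. The part of the PDK1 level and the part of a single hairpin in these differences were not tested. With shPDK1#2, the hairpin with the lower PDK1 level, CDH6 fell to 52.4% and PCDH1, a delta-1 protocadherin, to 43.1% of the shCtrl level. Of the other delta protocadherins tested, PCDH10 (384.0%), PCDH18 (227%), PCDH19 (149%) and PCDH7 (134%) rose, and PCDH9 did not pass. The low PCDHB2 and PCDH20 also rose. With shPDK1#1 only PCDH10 passed, and CDH2, CDH4, CDH11, CDH13, CDH24, PCDH9 and PCDHGC3 passed with neither hairpin. Both hairpins were compared with the same shCtrl libraries, so their results are not independent of each other.

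In shPDK1#1, 1 of the 19 tested genes passed (edgeR, adjusted over 14574 genes), where 3.06% of all tested genes did (1.62% higher, 1.44% lower), and 4 genes had an unadjusted p under 0.05. Libraries did not overlap for 5 of the 19, against 19.3% of all genes. In shPDK1#2, 8 of 19 passed, 6 higher and 2 lower, with a background of 26.2% (12.0% higher, 14.2% lower), and 10 of 19 did not overlap, against 39.5%. The median log2 fold change of the 19 genes was 0.003 in shPDK1#1 and 0.04 in shPDK1#2, beside 0.002 and 0.01 over all genes.

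PCDH10 was at 3.73, 5.22 and 3.60 CPM in shCtrl, at 9.21, 9.32 and 8.13 CPM in shPDK1#1 and at 15.4, 16.8 and 16.0 CPM in shPDK1#2. The 3 conditions did not overlap, with shPDK1#2 highest and shCtrl lowest. Its log2 fold change against shCtrl was 1.07 (SE 0.18, edgeR adjusted p = 0.000514) in shPDK1#1 and 1.92 (SE 0.16, edgeR adjusted p = 1.08e-09) in shPDK1#2. No gene overlaps its exons, and the call held under all 16 alternatives for each hairpin.

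CDH6 measured 206, 206 and 202 CPM in shCtrl, 197, 185 and 189 CPM in shPDK1#1 and 109.8, 106 and 106 CPM in shPDK1#2. The shPDK1#2 libraries lay far below the others, with a log2 fold change of -0.93 (SE 0.046, edgeR adjusted p = 4.48e-14), opposite in sign to its difference in OSCs against non-OSCs. For shPDK1#1 it was -0.11 (SE 0.044), where the libraries did not overlap but the adjusted test did not pass (edgeR adjusted p = 0.24). The other genes that passed both in OSCs against non-OSCs and with shPDK1#2 were divided. PCDH18 and PCDH20 also had opposite signs, while PCDH1, PCDH7 and PCDH19 had the same sign in both.

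PCDH18 was at 6.03, 6.43 and 5.59 CPM in shCtrl, 5.35, 7.43 and 5.36 CPM in shPDK1#1 and 11.4, 11.02 and 18.7 CPM in shPDK1#2. Only shPDK1#2 stood apart (log2 fold change 1.17, SE 0.20, edgeR adjusted p = 4.85e-05), and for shPDK1#1 the value was 0.003 (95% interval -0.43 to 0.43). PCDH19 was at 9.87, 10.7 and 9.69 CPM in shCtrl, 15.6, 13.3 and 12.5 CPM in shPDK1#1 and 15.5, 14.5 and 15.3 CPM in shPDK1#2. Both hairpins lay above shCtrl without overlap. The log2 fold change was 0.57 in shPDK1#2 (SE 0.13, edgeR adjusted p = 0.00135) and 0.44 in shPDK1#1 (SE 0.13), which did not pass (edgeR adjusted p = 0.0722).

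PCDH7 was at 32.1, 30.3 and 29.8 CPM in shCtrl, 31.0, 36.5 and 36.2 CPM in shPDK1#1 and 41.6, 42.8 and 39.5 CPM in shPDK1#2. The rise of 0.42 in log2 fold change with shPDK1#2 (SE 0.083, edgeR adjusted p = 0.000342) was without overlap, while shPDK1#1 overlapped shCtrl (0.17, adjusted p = 0.357). The gene ENSG00000286596, opposite 12.4% of the PCDH7 exons, had 0 to 6 counts in shCtrl, 0 to 10 in shPDK1#1 and 3 to 34 in shPDK1#2. Its part in the PCDH7 values was not tested. PCDH1 was at 6.14, 6.93 and 5.22 CPM in shCtrl, 6.10, 6.60 and 4.02 CPM in shPDK1#1 and 1.96, 4.05 and 1.88 CPM in shPDK1#2. It fell with shPDK1#2, by 1.22 on the log2 scale (SE 0.28, edgeR adjusted p = 0.00153), where replicate 2 was nearest to shCtrl, and for shPDK1#1 the log2 fold change was -0.15 (SE 0.25, adjusted p = 0.861).

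PCDHB2 and PCDH20 rested on few counts. PCDHB2 (chr5:141094606-141098703, 1 exon) had 14, 5 and 7 counts in shCtrl, 10, 0 and 23 in shPDK1#1 and 40, 27 and 26 in shPDK1#2. The log2 fold change of 1.66 in shPDK1#2 (SE 0.54, edgeR adjusted p = 0.0245) did not pass under DESeq2 (adjusted p = 0.242), nor without shCtrl replicate 2 (1.32, adjusted p = 0.13), shCtrl replicate 3 (1.60, adjusted p = 0.0753) or shPDK1#2 replicate 1 (1.49, adjusted p = 0.0998). PCDHB1-AS1 lies opposite 43.9% of its exon and was at 0 counts in all shCtrl and shPDK1#2 libraries. In shPDK1#1 it had 0, 6 and 1 counts, the 6 being in the library where PCDHB2 had 0. The part of PCDHB1-AS1 in the PCDHB2 values was not tested. PCDH20 had 6 counts in each shCtrl library, 7, 11 and 8 in shPDK1#1 and 19, 16 and 17 in shPDK1#2. Its log2 fold change of 1.35 in shPDK1#2 (SE 0.44, edgeR adjusted p = 0.0248) did not pass under DESeq2 (adjusted p = 0.0663), with no filter (0.0579), or without any 1 of the 6 shCtrl and shPDK1#2 libraries (1.28 to 1.43, adjusted p = 0.0552 to 0.0955).

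Summed over its 16 genes, the beta cluster had 13 to 25 counts per library in shCtrl, 6 to 40 in shPDK1#1 and 56 to 69 in shPDK1#2. As 1 feature it was higher in shPDK1#2 (log2 fold change 1.57, SE 0.35, edgeR adjusted p = 0.00142), and in shPDK1#1 the value was 0.25 (SE 0.40, adjusted p = 0.849). The gamma cluster as 1 feature had log2 fold changes of -0.13 (SE 0.042, adjusted p = 0.1) and -0.06 (SE 0.042, adjusted p = 0.315) with shPDK1#1 and shPDK1#2. PCDHGC3 held 87.9% to 90.3% of the gamma counts in shCtrl, 88.2% to 89.7% in shPDK1#1 and 87.5% to 89.2% in shPDK1#2, ranges that overlap.

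Genes that were tested but did not pass with a hairpin had small or wide differences. For CDH2, at 152 to 167 CPM in all shCtrl and shPDK1#2 libraries, the log2 fold change with shPDK1#2 was -0.03 (95% interval -0.12 to 0.07), so that a change as large as that in OSCs against non-OSCs lies outside the interval. For CDH4 it was 0.10 (-0.19 to 0.39), for CDH11 -0.07 (-0.18 to 0.03), for CDH13 0.04 (-0.12 to 0.20) and for PCDHGC3 -0.07 (-0.16 to 0.01). CDH23 (-0.45, -0.94 to 0.05) had libraries that did not overlap, at 3.62 to 4.97 CPM in shCtrl and 3.17 to 3.33 CPM in shPDK1#2, but did not pass (edgeR adjusted p = 0.208). CDH7, PCDHGC4 and PCDHGC5 had 6 to 25 counts per library in shCtrl and shPDK1#2, and log2 fold changes of 0.74, -0.01 and 0.11 with 95% intervals that together span -1.03 to 1.61. With shPDK1#1, the libraries of PCDHGC3 and CDH4 did not overlap those of shCtrl. Neither gene passed there, at -0.13 (-0.22 to -0.05, edgeR adjusted p = 0.107) and -0.21 (-0.51 to 0.09, edgeR adjusted p = 0.587).

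The hairpins were compared directly for the same 19 genes. Here 5 passed, 3 higher and 2 lower in shPDK1#2, with a background of 16.3% (6.50% higher, 9.78% lower), and 7 did not overlap, against 30.7% of all genes. The log2 fold change of shPDK1#2 against shPDK1#1 was -0.82 for CDH6 (SE 0.046, edgeR adjusted p = 8.67e-13), 1.17 for PCDH18 (SE 0.19, adjusted p = 8.45e-05) and 0.86 for PCDH10 (SE 0.14, adjusted p = 9.09e-05). PCDH1 (-1.07, SE 0.28, edgeR adjusted p = 0.00829) did not pass without shPDK1#2 replicate 1 (-0.89, adjusted p = 0.0563) or replicate 3 (-0.89, adjusted p = 0.0509). PCDH7 (0.25, SE 0.082, edgeR adjusted p = 0.0347) did not pass under DESeq2 (adjusted p = 0.0681) or without shPDK1#1 replicate 1 (0.18, adjusted p = 0.174), shPDK1#2 replicate 1 (0.25, adjusted p = 0.0929) or shPDK1#2 replicate 2 (0.23, adjusted p = 0.103). Without shPDK1#2 replicate 1 the number that passed was 3. PCDH19 did not pass this test (0.14, 95% interval -0.10 to 0.38, edgeR adjusted p = 0.5), nor did PCDHB2 (1.43, 0.41 to 2.45, edgeR adjusted p = 0.0624).

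Of the catenins that classical cadherins bind, beta-catenin (CTNNB1) was at 317 ± 8.69 CPM in non-OSCs and 309 ± 7.82 CPM in OSCs (SD, n = 3, log2 fold change -0.04, edgeR adjusted p = 0.498). Alpha-catenin (CTNNA1) rose by 0.47 in log2 fold change (adjusted p = 9.37e-09), p120 catenin (CTNND1) by 0.23 (adjusted p = 0.000745), plakoglobin (JUP) by 1.03 (adjusted p = 3.27e-08) and ARVCF, a p120 relative, by 2.02 (adjusted p = 3.21e-12). Other annotated genes overlap 39.1% of the CTNND1 exons on the same strand, so the division of its reads is uncertain. Of the 13 tested among 16 catenins, nectins and junction partners, 6 were higher and 4 lower in OSCs, where 63.9% of all genes passed. With the hairpins 2 of 13 passed for shPDK1#1 (3.06% of all genes), both higher, and 7 for shPDK1#2 (26.2% of all genes), 3 higher and 4 lower, among them CTNNB1 (-0.12, edgeR adjusted p = 0.028) and CTNNA1 (-0.14, edgeR adjusted p = 0.00859).

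Desmosome genes, which hold the other kind of cadherin-based junction, gave 3 higher of 5 tested in OSCs (60%, against 63.9% of all genes called), including DSP (log2 fold change 0.50, edgeR adjusted p = 2.73e-08) and DSC2 (0.54, adjusted p = 0.00235). Desmoplakin (DSP) was the 1 of 5 tested desmosome genes (20%) that passed with shPDK1#1 (-0.21, edgeR adjusted p = 0.0177), where 3.06% of all genes did. It was also the 1 of 5 that passed with shPDK1#2 (-0.48, edgeR adjusted p = 4.32e-08), where 26.2% of all genes did. Of 12 tested other genes of the cadherin superfamily, 7 were higher and 1 lower in OSCs (66.7% called, close to the 63.9% of all genes), led by the giant cadherin FAT4 (1.77, edgeR adjusted p = 1.76e-07) and the planar polarity gene CELSR1 (1.55, adjusted p = 2.01e-14). With shPDK1#2, 1 of 14 was higher and 3 were lower (28.6%, close to the 26.2% of all genes), FAT4 at 0.48 (edgeR adjusted p = 0.0114) and CELSR1 at -0.46 (adjusted p = 7.56e-06). With shPDK1#1, 0 of 14 passed in edgeR (3 at an unadjusted p under 0.05) and 0 of the 9 with an adjusted p in DESeq2. The 3 tested PCDHGA and PCDHGB genes gave 0 calls with either hairpin in edgeR, where 3.06% (shPDK1#1) and 26.2% (shPDK1#2) of all genes passed. Of these 3, 0 had an unadjusted p under 0.05. DESeq2 called 0 of the 2 with an adjusted p for shPDK1#1 and 0 of 3 for shPDK1#2.

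Proteases that cleave cadherins, listed together with protease subunits, gave 7 higher and 2 lower of 11 tested in OSCs (81.8%, against 63.9% of all genes). With shPDK1#2, 2 were higher and 2 lower (36.4%, against 26.2% of all genes). The lower ones were the subunit gene APH1B (log2 fold change -0.65, edgeR adjusted p = 0.00691) and MMP14 (-0.64, edgeR adjusted p = 2.04e-13). With shPDK1#1, 0 of 11 passed in edgeR (2 at an unadjusted p under 0.05) and 0 in DESeq2. Regulators of the protocadherin clusters (CTCF, cohesin, SMCHD1, SETDB1, DNMT3B and others) gave 2 higher of 12 in OSCs, the DNA methyltransferase DNMT3B (0.89, edgeR adjusted p = 1.29e-07) and the cohesin loader MAU2 (0.42, adjusted p = 6.57e-05), and 6 lower, with log2 fold changes of -0.36 to -0.16. These calls make up 66.7%, close to the 63.9% of all genes. With shPDK1#2 they gave 2 higher and 1 lower of 12 (25%, close to the 26.2% of all genes), and with shPDK1#1 0 of 12 in edgeR (0 at an unadjusted p under 0.05) and 0 in DESeq2.

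Markers of other cell types moved between the same groups, and their part in the cadherin differences was not tested. The 11 epithelial markers summed to between 1115 and 1243 CPM in non-OSCs and 309 and 320 CPM in OSCs, of which KRT18 and KRT8 were most (log2 fold changes -1.95 and -2.43, edgeR adjusted p = 7.4e-19 and 2.5e-17), while CLDN7, GRHL2 and KRT19 never exceeded 3 counts. The 9 endothelial markers summed to 81.2 to 91.7 CPM in non-OSCs and 35.2 to 42.4 CPM in OSCs, mostly TIE1 (-1.52, edgeR adjusted p = 2.43e-12), with KDR at -3.46 (adjusted p = 1.56e-08) and VWF at most 4 counts. The 9 neural markers summed to 121 to 136 CPM in non-OSCs and 293 to 321 CPM in OSCs, mostly TUBB3 (1.53, edgeR adjusted p = 5.52e-14), with MAP2 at 2.93 (adjusted p = 3.67e-06), and DCX, ELAVL3, ELAVL4 and SOX10 never exceeded 3 counts. In OSCs the tested markers gave 1 higher and 3 lower of 6 (epithelial), 2 lower of 4 (endothelial), 3 higher of 5 (neural) and 3 higher and 1 lower of 5 (osteoblast-lineage and osteosarcoma), led by SPP1 (2.35, edgeR adjusted p = 1.69e-19) and COL1A1 (1.34, adjusted p = 1.65e-15). The shares called were 66.7%, 50%, 60% and 80%, against 63.9% of all genes. The 9 osteoblast-lineage and osteosarcoma markers summed to 1084 to 1147 CPM in non-OSCs and 2495 to 2576 CPM in OSCs. This rise was not shared by the whole list. Its lower gene was RUNX2 (-1.11, edgeR adjusted p = 9.3e-09), and ALPL was lower without passing (-0.86, edgeR adjusted p = 0.0514).
Over the shCtrl, shPDK1#1 and shPDK1#2 libraries, the epithelial sum was 339 to 362, 392 to 406 and 446 to 485 CPM, the endothelial sum 34.2 to 36.9, 24.4 to 29.9 and 23.0 to 25.2 CPM, the neural sum 315 to 328, 294 to 328 and 256 to 261 CPM, and the osteoblast-lineage and osteosarcoma sum 3651 to 3729, 3918 to 3993 and 5211 to 5345 CPM. With shPDK1#2 the tested markers gave 2 higher of 6, 2 lower of 4, 1 higher and 1 lower of 4, and 4 higher of 6 in the same order, where 26.2% of all genes passed. With shPDK1#1, where 3.06% of all genes passed, they gave 1 higher of 6, 1 lower of 4, 0 of 4 and 1 higher of 6. Of the 4 neural markers, 0 had an unadjusted p under 0.05, and DESeq2 called 0 of the 3 with an adjusted p.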

How the data were processed

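RNA of 143B cells was prepared with a FastGene kit and a NEBNext library kit and sequenced in pairs on an Illumina NovaSeq. Trimming (Trimmomatic 0.39), quality checks (FastQC 0.12.1), alignment on GRCh38.p14 (STAR 2.7.11a) and counting (RSEM 1.3.3) were done by the authors, who deposited expected counts for every gene with no scaling between libraries. Annotation and strandedness are not given in the sources used here. Counts were not whole in 6.85% (first table) and 6.92% (second) of values and were rounded. Columns of the first table carry abbreviations of flat and spheroid culture, which were read as non-OSC and OSC. 0 columns stayed unmapped.

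Each table was fitted separately in R 4.3.3 by edgeR 4.0.16: low genes were removed by filterByExpr, libraries scaled by TMM, and the quasi-likelihood test adjusted over all genes tested by Benjamini-Hochberg. The 9 hairpin libraries shared 1 fit. Pairs of replicates differed by 1.96 to 3.56 in chi-square per degree of freedom, so each counted once. On simulated counts the test recovered 83 of 98 genes with a log2 change of 1 and 96 of 96 with 2 in the first table (8 unchanged genes called), and 83 of 98 and 98 of 100 for shPDK1#2 against shCtrl (14 unchanged genes called). The simulation changed few genes, in both directions alike. It therefore does not show how scaling and test behave where 63.9% of genes passed, as in OSCs against non-OSCs. Coordinates and overlaps come from GENCODE 44, promoters from RefSeq. Plots used matplotlib 3.10.9.

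The members and lists were chosen with earlier results of these data known. Every member that passed in any of 4 contrasts is named, as are PDK1, CTNNB1, CTNNA1, CTNND1 and JUP, and of each other list at most the 2 called genes with the largest change among those with a mean of at least 5 CPM. List genes at or near 0 counts are named for that alone. RUNX2, ALPL and MMP14 fall outside this rule and were named after their values were seen. Levels are never compared across the tables. Alternatives were DESeq2 1.42.0, scaling by library size, no filter, a minimum of 10 counts per library, the replicate block, a fit of the compared groups alone, clustered genes summed, and single libraries left out.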

Additional observations from a re-analysis of the deposited data

Results flagged for a closer look

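In 5 of the 19 cadherin and protocadherin genes tested in the second table the effects of the hairpins differed, by the direct test of shPDK1#2 against shPDK1#1 in edgeR (adjusted p under 0.05). In log2 fold change the difference was -0.82 for CDH6, 0.86 for PCDH10, -1.07 for PCDH1, 0.25 for PCDH7 and 1.17 for PCDH18. PCDH10 passed against shCtrl with both hairpins, and the other 4 with shPDK1#2. Of all genes tested 16.3% differed between the hairpins, and PDK1 itself was lower with shPDK1#2 (-0.50, SE 0.091, adjusted p = 0.00024).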

How the results depend on the processing

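For the 27 gene results that passed, 375 values were computed under the alternatives. Of these, 349 kept both the direction and the call, 26 kept the direction without the call, and 0 changed direction. The call held throughout for 20 results. The 7 that lost it at least once were CDH11, CDH23 and PCDH19 in OSCs against non-OSCs, PCDH20 and PCDHB2 in shPDK1#2 against shCtrl, and PCDH1 and PCDH7 between the hairpins, as given with their values above, and the cause was not tested. Leaving out 1 library at a time, the number of cadherin genes that passed lay between 11 and 15 in OSCs against non-OSCs (13 with all libraries), at 1 in each fit for shPDK1#1, between 6 and 8 for shPDK1#2 (8), and between 3 and 6 between the hairpins (5). The value of 3 came without shPDK1#2 replicate 1.

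Whether replicate numbers pair the libraries is not known. The deviations of same-numbered libraries from their group means correlated at -0.0093 to 0.073 in the first table (3 pairs) and -0.0539 to 0.0948 in the second (9 pairs). These low values cannot exclude a pairing, because counting noise with 3 libraries per group can hide a weak one. With the replicate block, 13, 1, 8 and 6 of the genes passed in the 4 comparisons, against 13, 1, 8 and 5 without it, and over all genes 9420, 507, 3943 and 2522 passed, against 9126, 446, 3812 and 2374. The 49 genes under the filter had at most 18 counts in a library. With no filter, 46 family members entered the first table's fit and 54 the second's, and 15, 1, 7 and 6 passed in the 4 comparisons. Among the 49 only PCDHB9 passed, in OSCs against non-OSCs (0 counts in each non-OSC library and 2, 6 and 0 in the OSC libraries, edgeR adjusted p = 0.0496), and it was named after its values were seen.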
